A study of Saccharomyces cerevisiae with 3 samples.

Results

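The 34 genes described here encode the enzymes and partner proteins of ergosterol synthesis in the budding yeast Saccharomyces cerevisiae, the 2 zinc cluster activators of the pathway, and proteins that import sterols or store and release them as esters. They were taken from a list of gene names, with no threshold on a measured value, and matched by locus tag. All 34 were found among the 5777 genes of the array, each measured with 8 probes. The cells were strain DS10, labelled WT, for which the labels give no further genotype, and carried 1 of 3 low-copy pRS415 plasmids with the strong GPD promoter. The inserts were TAP, the group labelled vector, the Hsp70-type chaperone Ssz1 carrying S295F, and a C-terminal piece of the J-protein Zuo1 covering residues 365-433 and carrying S427G, called Zuo1 S427G below. All 3 groups were fresh transformants that grew to log phase without leucine, and for each the RNA of 3 cultures was pooled and hybridised once. The labels do not say what the TAP insert encodes, so the control carries an insert of unstated product.

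Ergosterol is the main sterol of fungal membranes and the counterpart of cholesterol. Its synthesis starts with acetyl-CoA units that become mevalonate, runs through isoprenoid units to squalene, and ends with a chain of ring and side-chain reactions in the endoplasmic reticulum. Several of the later enzymes use molecular oxygen, and some of these also use heme or iron, which links sterol supply to the oxygen supply of the cell. The transcription factors Upc2 and Ecm22 sense sterol supply and activate many genes of the pathway, while surplus sterol is esterified and stored in lipid droplets. Azole and allylamine antifungals act on Erg11 and Erg1, and the Pdr1 network, which Ssz1 and the C-terminus of Zuo1 can activate, confers resistance to many drugs.

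Each gene had 1 intensity, on a linear scale, in each of 3 blocks per array, as the authors deposited it after RMA, a method that corrects background, normalizes arrays and combines a gene's probes. Values below are the mean over blocks on the log2 scale, written back as an intensity, or a log2 ratio between arrays followed by its SD over the 3 blocks. That SD holds only technical noise inside the arrays. With 1 array per group there is no spread between cultures, no test was possible, and no p-value is given. Genes past 2-fold in either direction are counted by size alone. Both comparisons with vector use the same vector array, so they are not independent of each other, and the direct comparison of the constructs is the only one without it. Array medians lay between 2704 and 2807, and the lowest correlation between blocks of an array was 0.998 across genes. SSZ1 read 10279 with vector, 19318 with Ssz1 S295F and 12001 with Zuo1 S427G, which follows the labels. PDR5, a drug efflux pump gene driven by Pdr1, had log2 ratios to vector of 0.86 ± 0.04 and 0.78 ± 0.04. ZUO1 read 13337, 13744 and 12935 in the same order, so the gene of the overexpressed fragment was not higher on its own array (log2 ratio to vector -0.04 ± 0.04). Probe positions were not used, and whether the probes lie inside the fragment is not known here. All genes had a median log2 ratio to vector of -0.15 with Ssz1 S295F and of -0.12 with Zuo1 S427G, so a ratio of 0 lies above the middle gene of the array.

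Most sterol genes read within 0.25 of vector on the log2 scale, and 1 of them passed 2-fold. NCP1, which encodes the reductase that passes electrons to the cytochrome P450 enzymes of the pathway, was higher past 2-fold with both constructs. It was the only member called in either comparison, or 2.94% of the 34. YEH2 and ARE1, of sterol storage, came next, with YEH2 just under 2-fold, and among the enzymes ERG12 was highest and HMG2 lowest. Among all genes, 5.02% were higher past 2-fold with Ssz1 S295F and 3.64% with Zuo1 S427G, so the members were not called more often than other genes. No member was lower past 2-fold, against 2.77% of all genes with Ssz1 S295F and 0.866% with Zuo1 S427G. Between the constructs no member was called in either direction, against 0.138% of genes in each. With ratios centred on the median of all genes, the members counted as higher were 2 in both comparisons, against 6.82% and 4.36% of all genes, and those lower 0, against 1.56% and 0.537%. At 1.5-fold, 3 members were higher with Ssz1 S295F, against 10.2% of all genes, and 2 with Zuo1 S427G, against 7.6%. None was lower at 1.5-fold, against 13.1% and 7.17% of all genes. Between the constructs none passed 1.5-fold, against 0.675% of all genes higher and 1.38% lower. The members are mostly bright genes: 24 of the 34 lay in the brightest 25% of genes by mean log2 level, where 1.52% of genes were higher with Ssz1 S295F and 1.18% with Zuo1 S427G. None of the members read below the 5th percentile of any array.

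**Figure D1:**
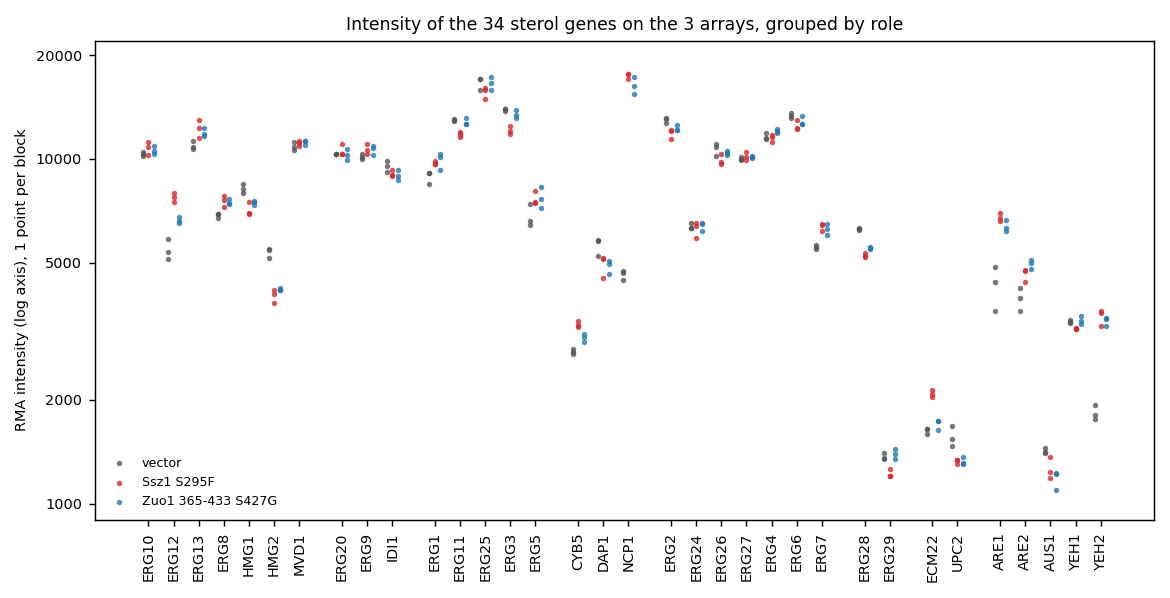
Intensity (log axis) of the 34 sterol genes on the vector array (grey), the Ssz1 S295F array (red) and the Zuo1 S427G array (blue), 1 point per block, with genes grouped by role. For most genes the 9 points lie close together, while NCP1 reads 4626 with vector and 17409 and 16300 with the constructs, and YEH2 reads 1833 with vector and 3485 and 3392.

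Ratios of the members were narrowly spread. With Ssz1 S295F, 26 of 34 had a log2 ratio within 0.25 of 0 (a band chosen with the values known), or 76.5%, against 42.7% of all genes and 67.9% of the brightest 25%. With Zuo1 S427G it was 27 members, or 79.4%, against 52.1% and 81.2%. The members thus resembled other bright genes in this respect. Their median ratio was 0.01 ± 0.01 with Ssz1 S295F and 0.02 ± 0.01 with Zuo1 S427G, which is 0.16 and 0.15 above the median of all genes. Of the 34, 26 and 28 lay above that median, or 76.5% and 82.4%, against 65.4% and 73.2% of the brightest 25% of genes. The SD beside a median of several genes is that of the medians in single blocks. With Ssz1 S295F these were -0.014, -0.002 and -0.002, so the sign of the members' median is not settled. The 3 blocks gave the same sign for 28 members in the first comparison, 13 of them above 0 and 15 below, and for 24 in the second, 15 above and 9 below. The brightest 25% of genes had medians of -0.07 and -0.04. After a smooth trend with mean level was subtracted, the members' medians lay 0.07 above that of all genes in both comparisons. Signs depend on the scaling, and not only near 0. The 5 other settings were the series-wide table, centring, quantile normalization, and trends with level or coding length subtracted. Under at least 1 of them, 14 members changed sign with Ssz1 S295F and 13 with Zuo1 S427G. These include ERG28, at -0.25 and -0.19 before such changes.

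**Figure D2:**
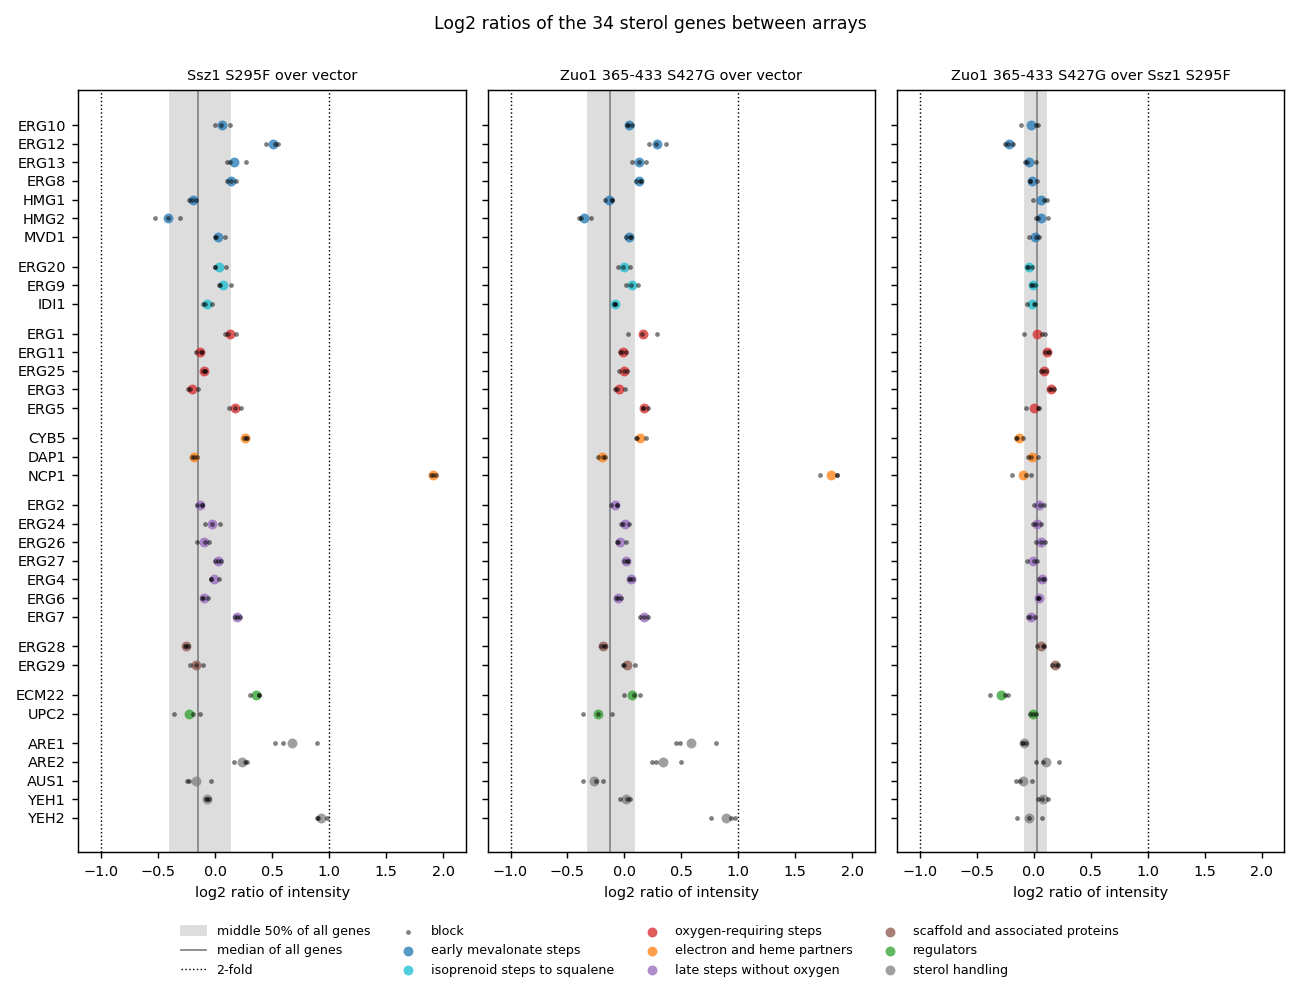
Log2 ratio of intensity for the 34 sterol genes in 3 comparisons of arrays, ordered by role. Large points are means over blocks, small black points the 3 blocks, the grey band the middle 50% of all genes, the grey line their median and the dotted lines 2-fold. NCP1 at 1.91 and 1.82 is the only gene beyond the dotted lines, and in the comparison of the constructs every member lies between -0.29 and 0.19.

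The early mevalonate steps differed little between arrays, except for ERG12 and HMG2. Erg10, the thiolase that joins acetyl-CoA units, and Erg13, which makes HMG-CoA, head the pathway. ERG10 had log2 ratios of 0.06 ± 0.07 with Ssz1 S295F and 0.04 ± 0.02 with Zuo1 S427G. ERG13 had 0.17 ± 0.09 and 0.13 ± 0.06. Both genes thus stayed under 0.2 in either comparison. HMG-CoA reductase, the main controlled step, has isozymes encoded by HMG1 and HMG2. HMG2 (YLR450W, chromosome XII, 1032624 to 1035761 in the array's coordinates, a coding region with no overlapping gene on the array) read 5360 with vector, 4014 with Ssz1 S295F and 4190 with Zuo1 S427G. Its vector blocks, from 5175 to 5484, all lay above its 6 construct blocks, from 3813 to 4228. The log2 ratios were -0.42 ± 0.11 and -0.36 ± 0.06, the lowest of all 34 members in both comparisons, although 23.2% of all genes had a lower one with Ssz1 S295F. HMG1 was nearer to vector, at -0.20 ± 0.03 and -0.13 ± 0.03. The ratio of HMG2 was lower than that of HMG1 by 0.22 ± 0.08 with Ssz1 S295F and by 0.22 ± 0.09 with Zuo1 S427G. Hmg2 is the isozyme whose protein is degraded in response to sterol intermediates, a step that transcript values do not show.

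Mevalonate is then phosphorylated by Erg12 and Erg8 and decarboxylated by Mvd1. ERG12 (YMR208W, chromosome XIII, 684466 to 685797) read 5449 with vector, 7741 with Ssz1 S295F and 6644 with Zuo1 S427G, and its 3 arrays did not overlap in any block. The log2 ratios were 0.51 ± 0.06 and 0.29 ± 0.07, the highest among the enzymes of the pathway itself. ERG12 also differed between the constructs, at -0.22 ± 0.03 for Zuo1 S427G over Ssz1 S295F, where 8.74% of all genes had a lower ratio. Its neighbours in the pathway did not share this: ERG8 was at 0.14 ± 0.04 and 0.13 ± 0.02, and MVD1 at 0.03 ± 0.05 and 0.04 ± 0.02. Over the 7 early genes the median was 0.06 ± 0.06 with Ssz1 S295F and 0.04 ± 0.02 with Zuo1 S427G. None of the 7 passed 2-fold, against 5.02% and 3.64% of all genes higher and 2.77% and 0.866% lower.

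The 3 genes from isopentenyl diphosphate to squalene were close to vector. IDI1, for the isomerase that makes the second isoprenoid unit, had ratios of -0.07 ± 0.04 and -0.09 ± 0.01. ERG20, for farnesyl diphosphate synthase, had 0.03 ± 0.05 and -0.01 ± 0.05. ERG9, for squalene synthase, which commits the chain to sterols, had 0.07 ± 0.06 and 0.07 ± 0.05. None of these values exceeded 0.09 in size. With the trend with coding length subtracted, IDI1 turned to 0.24 and 0.17. ERG20 was then at 0.25 and 0.18, and ERG9 at 0.13 in both comparisons. The other pathways that draw on the same isoprenoids lay lower: the list of 10 genes for ubiquinone, dolichol, heme A, tRNA and protein prenylation had medians of -0.25 and -0.23. Medians of all genes were -0.15 and -0.12, and with the trend with coding length subtracted those of the list became -0.08 and -0.12. Past 2-fold were 0 of 10, against 5.02% and 3.64% of all genes higher and 2.77% and 0.866% lower. In that list COX10, for heme O synthesis, was highest at -0.01 ± 0.03 and 0.03 ± 0.08, and SRT1, a cis-prenyltransferase gene, was lowest at -0.72 ± 0.21 and -0.42 ± 0.20. SRT1 read 26.3, 15.9 and 19.6, below the 5th percentile of each array, so the size of its ratio is uncertain.

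The steps that use oxygen were likewise near vector. Erg1, the squalene epoxidase, performs the first of them, and ERG1 had ratios of 0.13 ± 0.05 with Ssz1 S295F and 0.16 ± 0.13 with Zuo1 S427G. ERG11 (YHR007C, chromosome VIII, 120086 to 121678), for the P450 that demethylates lanosterol, read 12944 with vector, 11767 with Ssz1 S295F and 12791 with Zuo1 S427G. Its ratios were -0.14 ± 0.03 and -0.02 ± 0.03, and with ratios centred on the median of all genes they became 0.01 and 0.11. ERG25, for the iron-dependent methyl sterol oxidase, had -0.10 ± 0.01 and -0.01 ± 0.03. ERG3, a sterol desaturase gene, had -0.20 ± 0.04 and -0.05 ± 0.05. ERG5, for the second P450 of the pathway, a side-chain desaturase, had 0.17 ± 0.05 and 0.18 ± 0.03. All 5 stayed within 0.25 of 0 in both comparisons, as did 67.9% and 81.2% of the brightest 25% of genes.

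Oxygen-requiring steps were compared with the early mevalonate steps, which need no oxygen. With Ssz1 S295F the median ratio was -0.10 for the 5 oxygen-requiring genes and 0.06 for the 7 early genes, a difference of -0.16 ± 0.06 over blocks. With Zuo1 S427G the medians were -0.01 and 0.04, a difference of -0.05 ± 0.02. Directly between the constructs, the oxygen-requiring genes lay 0.10 ± 0.02 above the early genes, which shrank to 0.059 after quantile normalization, 0.052 with the trend with coding length subtracted and 0.029 with NCP1, CYB5 and DAP1 added. The values for Zuo1 S427G over Ssz1 S295F ran from 0.00 ± 0.06 for ERG5 to 0.16 ± 0.02 for ERG3, where 3351 of the 5777 genes were above 0. ERG5 and ERG1 were below 0 in block 3, at -0.065 and -0.084, and ERG5 was at -0.024 after centring. The ranges of the lists overlapped in both comparisons with vector, since the early genes spanned -0.42 to 0.51 and the oxygen-requiring genes -0.20 to 0.17 with Ssz1 S295F. Once the trend with coding length was subtracted, the difference with Ssz1 S295F shrank to -0.048 and that with Zuo1 S427G to -0.012. With means in place of medians the differences were -0.069 and 0.033, so the sign of the second is not settled. Genes are not replicates, and no test was made of these differences.

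NCP1 stood apart from the enzymes it serves. Ncp1, the NADPH-dependent reductase of the endoplasmic reticulum, supplies electrons to the P450 enzymes Erg11 and Erg5 and to Erg1. NCP1 (YHR042W, chromosome VIII, 190536 to 192611, coding region with no overlapping gene on the array) read 4462, 4680 and 4741 in the 3 blocks of the vector array. It read 17055, 17593 and 17586 with Ssz1 S295F, and 16287, 15394 and 17274 with Zuo1 S427G. Every construct block was therefore more than 3 times every vector block. The log2 ratios were 1.91 ± 0.02 and 1.82 ± 0.09, or 3.76-fold and 3.52-fold. Of all genes, 98.6% and 98.9% had lower ratios. The constructs themselves did not differ for NCP1 beyond about 1 block SD, at -0.09 ± 0.09.

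The ratio of NCP1 exceeded that of ERG11 by 2.05 ± 0.01 with Ssz1 S295F and by 1.83 ± 0.08 with Zuo1 S427G. Over ERG1 it was higher by 1.78 ± 0.06 and 1.66 ± 0.21. The array's own annotation describes NCP1 as regulated together with ERG11, while on these arrays NCP1 was higher and ERG11 was near vector. Other carriers of electrons or heme had ratios under 0.3 in size, but these moved with the correction for coding length. CYB5, for cytochrome b5, which passes electrons to Erg3 and other oxidases, read 2759, 3314 and 3028, with ratios of 0.26 ± 0.01 and 0.13 ± 0.04. CYB5 is the shortest member at 363 bp, and with the length trend subtracted it was at 0.80 and 0.51. DAP1, for a heme-binding partner of Erg11, had -0.18 ± 0.02 and -0.20 ± 0.03, and turned to 0.31 and 0.16 with that trend subtracted. The genes on either side of NCP1 on the chromosome did not share its ratio: SRB2 was at -0.40 ± 0.04 and -0.48 ± 0.06, and DOG2 at 0.04 ± 0.03 and -0.12 ± 0.03.

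NCP1 has a coding length of 2076 bp, and ratios to vector went with coding length across the array. When all genes were split by coding length into 5 classes of nearly equal number, in the class from 1464 to 2115 bp 10.8% of genes were higher past 2-fold with Ssz1 S295F and 8.08% with Zuo1 S427G, more than the 5.02% and 3.64% of all genes. The median of that class was 0.11 and 0.08. After a smooth trend with coding length was subtracted, NCP1 remained at 1.83 and 1.77.

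**Figure D3:**
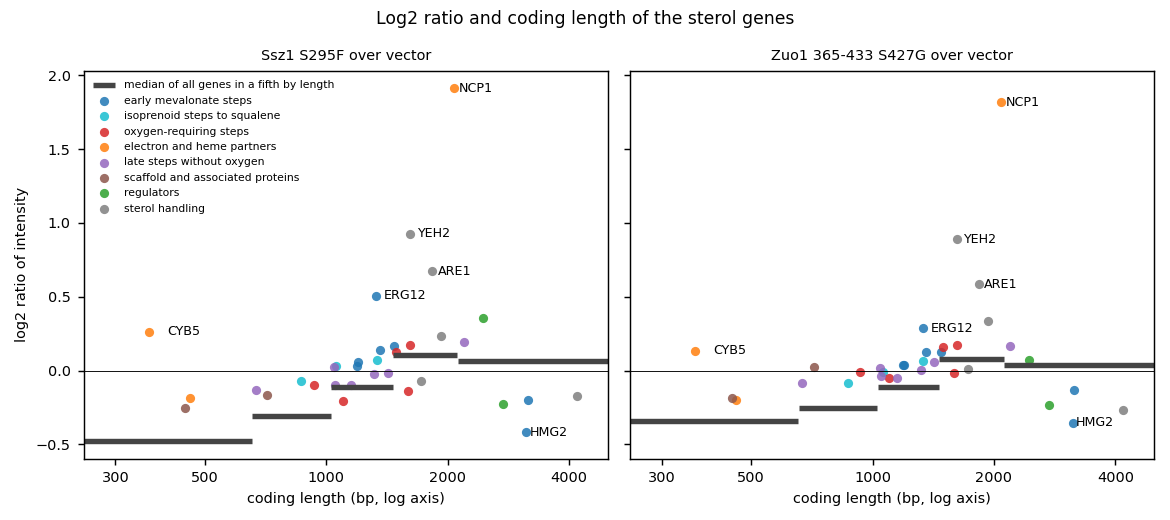
Log2 ratio to vector of each sterol gene against its coding length in bp (log axis), for Ssz1 S295F (left) and Zuo1 S427G (right). Dark bars are the median of all genes in each of 5 length classes, at -0.48 for the shortest and 0.11 for the class from 1464 to 2115 bp on the left. NCP1 lies far above its bar at 1.91 and 1.82, and HMG2 below its bar at -0.42 and -0.36.

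The late steps that need no oxygen stayed near vector. Erg7 closes the squalene epoxide into lanosterol, and ERG7 had the highest ratios of this group, 0.19 ± 0.03 and 0.17 ± 0.03. ERG24, for a sterol reductase, had -0.03 ± 0.07 and 0.00 ± 0.04. ERG26 and ERG27 encode the dehydrogenase and the ketoreductase that finish demethylation after Erg25. They had -0.10 ± 0.05 and 0.02 ± 0.02 with Ssz1 S295F. ERG6, for the sterol methyltransferase that marks fungal sterols, had -0.10 ± 0.03 and -0.05 ± 0.02. ERG2, for the sterol isomerase, was lowest with -0.13 ± 0.02 and -0.08 ± 0.03. With the trend with coding length subtracted this order turned, with ERG2 at 0.27 and 0.22 and ERG7 at 0.11 and 0.12. ERG4, for the last reductase of the pathway, had -0.01 ± 0.04 and 0.06 ± 0.02. All 7 lay above the median of all genes and within 0.25 of 0 in both comparisons. Over the 22 enzymes from ERG10 to ERG4, the lowest and highest ratios were those of HMG2 and ERG12 in both comparisons. In each, 20 of 22 were within 0.25 of 0, or 90.9%. Of all genes 42.7% and 52.1% were within that band, and of the brightest 25% of genes 67.9% and 81.2%.

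The scaffold gene ERG28 and the associated gene ERG29 read slightly lower with Ssz1 S295F. However, both were above 0 once the trend with coding length was subtracted, and ERG29 also after that with mean level. ERG28, for the scaffold that tethers Erg26, Erg27 and others, read 6260 with vector, 5257 with Ssz1 S295F and 5506 with Zuo1 S427G. Its ratios were -0.25 ± 0.01 and -0.19 ± 0.02. ERG28 is among the shortest members at 447 bp, and genes of up to 654 bp had medians of -0.48 and -0.34. With the length trend subtracted, the sign of ERG28 changed, to 0.24 and 0.17. ERG29, for a protein linked to the Erg25 step, had -0.16 ± 0.06 and 0.03 ± 0.06. It differed between the constructs by 0.19 ± 0.03, the highest member in that comparison. With the length trend subtracted this difference was 0.10, and ERG11 was the highest member at 0.13.

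The activators of the pathway went different ways with Ssz1 S295F, except once the trend with mean level was subtracted, when both were above 0. UPC2 (YDR213W, chromosome IV, 889748 to 892489), whose product also drives sterol uptake and cell wall mannoprotein genes when oxygen is short, read 1561 with vector, 1331 with Ssz1 S295F and 1327 with Zuo1 S427G. The ratios were -0.23 ± 0.12 and -0.23 ± 0.13, and vector block 1, at 1684, lay apart from the other vector blocks, at 1469 and 1537. After the trend with mean level was subtracted, the signs changed to 0.06 and 0.02. ECM22 (YLR228C, chromosome XII, 600021 to 602465) read 1626 with vector, 2085 with Ssz1 S295F and 1707 with Zuo1 S427G. Its Ssz1 S295F blocks all lay above the blocks of the other arrays. Its ratios were 0.36 ± 0.04 and 0.07 ± 0.07, which became 0.58 and 0.29 with the trend with mean level subtracted. Centring gave 0.19 and quantile normalization 0.16 for Zuo1 S427G. Between the constructs ECM22 had the lowest value of the members, -0.29 ± 0.09. With the trend with coding length subtracted, CYB5 was lower there, at -0.28 against -0.25 for ECM22. The ratio of UPC2 was below that of ECM22 by 0.59 ± 0.08 with Ssz1 S295F and by 0.30 ± 0.18 with Zuo1 S427G. Neither gene passed 2-fold.

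YEH2 and ARE1, genes of sterol storage, had the highest ratios after NCP1, except that CYB5 lay above ARE1 with Ssz1 S295F once the trend with coding length was subtracted (0.80 against 0.59). Are1 and Are2 esterify sterols with fatty acids, Are1 mainly when oxygen is short and Are2 mainly in air. ARE1 (YCR048W, chromosome III, 211925 to 213757, overlapping YCR050C on the array) read 4258 with vector, 6782 with Ssz1 S295F and 6381 with Zuo1 S427G. Its ratios were 0.67 ± 0.20 and 0.58 ± 0.19, with the highest block SD of the members. Vector block 3, at 3624, was below the other vector blocks, at 4390 and 4853, while the construct blocks lay between 6173 and 6989. YCR050C, whose signal was not separated from that of ARE1, had -0.45 in both comparisons. ARE2 had 0.23 ± 0.06 and 0.34 ± 0.14.

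Stored esters are opened again by hydrolases, Yeh1 on lipid droplets and Yeh2 at the plasma membrane. YEH2 (YLR020C, chromosome XII, 181788 to 183404, no overlapping gene on the array) read 1936, 1758 and 1810 in the vector blocks. It read 3626, 3270 and 3569 with Ssz1 S295F, and 3279, 3436 and 3464 with Zuo1 S427G, so construct and vector blocks did not overlap. The ratios were 0.93 ± 0.05 and 0.89 ± 0.11, or 1.90-fold and 1.85-fold, just under the size rule. With ratios centred on the median of all genes, YEH2 passed 2-fold in both comparisons, where 6.82% and 4.36% of all genes were higher past 2-fold. Like NCP1 it falls in the length class from 1464 to 2115 bp, and with the length trend subtracted it was at 0.88 and 0.86. YEH1, its counterpart on lipid droplets, read 3374, 3215 and 3399 and did not follow, with -0.07 ± 0.01 and 0.01 ± 0.05. The ratio of YEH2 exceeded that of YEH1 by 0.997 ± 0.04 and 0.88 ± 0.07. On the chromosome, the neighbour PSR2 was also higher, at 0.67 ± 0.03 and 0.45 ± 0.06, and IRC25 on the other side was lower, at -0.49 ± 0.04 and -0.35 ± 0.00. Uptake of sterols from outside runs through the ABC transporter Aus1 when oxygen is short, and AUS1 read 1420, 1262 and 1180, with -0.17 ± 0.12 and -0.27 ± 0.09. With the trend with mean level subtracted, AUS1 turned to 0.13 and 0.004.

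Neighbouring lists were described in the same way. The list of other sterol transport and ester genes held 24 names for 23 genes, as YSP1 and LAM1 are the same gene, with medians of -0.04 and -0.06. With Ssz1 S295F 39.1% of them lay within 0.25 of 0 and with Zuo1 S427G 60.9%, near the 42.7% and 52.1% of all genes. With Ssz1 S295F 1 of 23 was higher past 2-fold, or 4.35% against 5.02% of all genes, and 2 were lower, or 8.70% against 2.77%. With Zuo1 S427G 1 was higher, against 3.64% of all genes, and 1 lower, against 0.866%. HES1 (also named OSH5), for an oxysterol-binding protein, read 880 with vector, 196 with Ssz1 S295F and 272 with Zuo1 S427G. Its ratios of -2.17 ± 0.11 and -1.69 ± 0.06 were the lowest of the list, and the readings on the construct arrays lay at the 5.09th and 6.61st percentile, so their sizes are less certain. PRY3, of a family whose members can bind and export sterols, read 3779, 15987 and 13860, with ratios of 2.08 ± 0.04 and 1.87 ± 0.02. PRY1 and PRY2, of the same family, did not share this. PRY1 had -0.60 ± 0.02 and -0.47 ± 0.00, and PRY2 -0.09 ± 0.03 and -0.11 ± 0.01. ATF2, for an acetyltransferase that can acetylate sterols for export, had -1.08 ± 0.09 with Ssz1 S295F and -0.48 ± 0.09 with Zuo1 S427G, and -0.93 in the first comparison once ratios were centred. KES1 (OSH4), of the same family as HES1, went the other way at 0.90 ± 0.02 and 0.79 ± 0.19. Its block 1 lay lower with Zuo1 S427G, at 0.57. KES1 passed 2-fold with Ssz1 S295F once ratios were centred, at 1.05. The other OSH genes of the list lay between -0.05 (OSH7, with Zuo1 S427G) and 0.64 (OSH3, with Ssz1 S295F).

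The list of 15 genes drawn up for control of HMG-CoA reductase and sterol transcription had medians of -0.16 and -0.17. It also holds HES1, the oxysterol-binding protein gene already counted in the transport list. TUP1, for the general corepressor that acts on hypoxic genes among others, read 3144 with vector, 9482 with Ssz1 S295F and 8591 with Zuo1 S427G, with ratios of 1.59 ± 0.01 and 1.45 ± 0.06. MOT3, for a repressor of hypoxic and ergosterol genes, had 1.16 ± 0.03 and 0.74 ± 0.04. TUP1 passed 2-fold in both comparisons with vector and MOT3 in the first. With Ssz1 S295F 2 of 15 were thus higher, against 5.02% of all genes, and with Zuo1 S427G 1, against 3.64%. HES1 was the 1 gene lower past 2-fold in both, or 6.67% of the list, against 2.77% and 0.866% of all genes. The lower count thus rests on a gene shared with the transport list. TUP1 and MOT3 have coding lengths of 2142 and 1473 bp and stayed at 1.51 and 1.16 with Ssz1 S295F after the length trend was subtracted. Between the constructs 0 of 15 were called, against 0.138% of all genes in each direction.

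Heme synthesis serves Erg11 and Erg5, and its 8 genes had medians of -0.24 and -0.15, against -0.15 and -0.12 for all genes. Past 2-fold were 0 of 8, against 5.02% and 3.64% of all genes higher and 2.77% and 0.866% lower. HEM14, for a mitochondrial oxidase of the pathway, was highest at 0.95 ± 0.04 and 0.70 ± 0.05, but overlaps BUD25 on the array, from which it was not separated. With Ssz1 S295F it passed 2-fold after centring (1.09), quantile normalization (1.04) and subtraction of the trend with mean level (1.12). HEM4 was lowest with Ssz1 S295F at -0.71 ± 0.03. HEM13 and HEM4 were lowest with Zuo1 S427G, at -0.47 ± 0.01 and -0.47 ± 0.02.

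**Figure D4:**
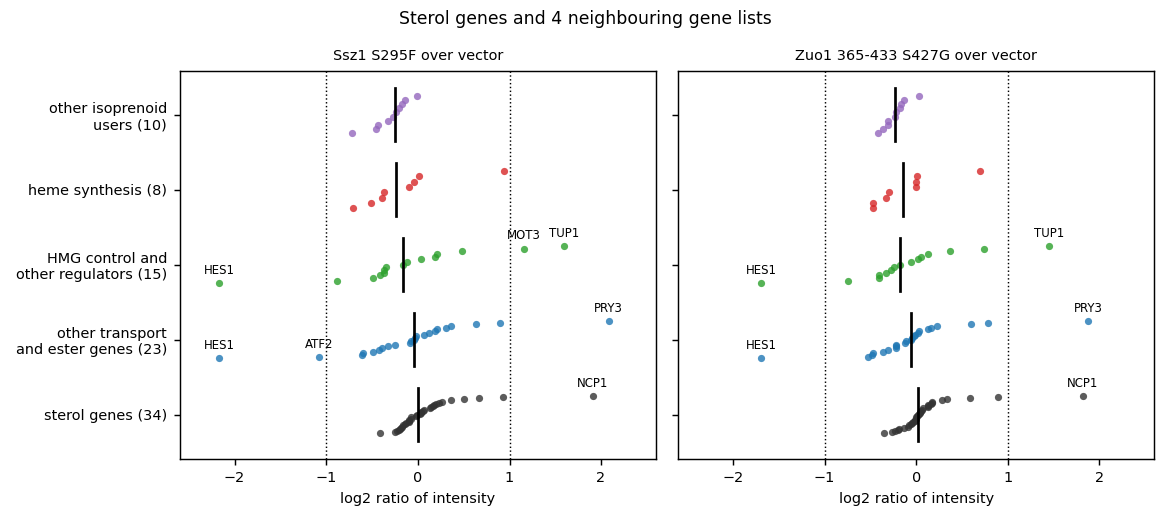
Log2 ratio to vector of the 34 sterol genes and of the genes of 4 neighbouring lists, 1 point per gene sorted within its list, for Ssz1 S295F (left) and Zuo1 S427G (right). Black bars are list medians and dotted lines 2-fold. HES1 at -2.17 and PRY3 at 2.08 on the left lie far outside the sterol genes, of which only NCP1 is named beyond 2-fold.

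Between the constructs the sterol genes were close to equal. For Zuo1 S427G over Ssz1 S295F, 33 of 34 members lay within 0.25 of 0, against 85.7% of all genes and 96.7% of the brightest 25%. Their median was -0.00 ± 0.01, and 17 were above and 17 below 0. In single blocks the medians were 0.018, 0.029 and 0.002. ECM22 at -0.29 was the member outside that band. ERG12 came next on the lower side, and ERG29 and ERG3 were highest at 0.19 and 0.16. This order moved with the trend with coding length subtracted, when CYB5 was lowest at -0.28 and ERG11 highest at 0.13. The values of NCP1, YEH2 and ARE1 in this comparison were -0.09, -0.04 and -0.09, so the 3 members with the largest ratios to vector read nearly alike on the construct arrays. A difference that both constructs share and a low reading of the single vector array cannot be told apart.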

How the data were processed

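RNA of 3 groups was measured on 3 one-colour Cy3 NimbleGen arrays, 1 per group. The authors deposited gene intensity values made by RMA, per the submitters' processing notes. There are 3 values, 1 per block, for each of 5777 genes on every array, per the file headers. The labels do not name the program that ran RMA. The deposited series-wide table holds the mean intensity over blocks for 5769 genes and served as an alternative. Deposited intensities were converted to log2, averaged over blocks with no floor, and ratios are differences of these means. Trends were fitted by loess (fraction 0.4, statsmodels 0.14.6, Python 3.11.15). Names come from RefSeq R64 by locus tag (5771 genes matched). Coordinates and coding lengths are those of the array files, with chromosome sequences of 2008. The functions were tested on simulated arrays. A column headed as a standard error was not used because its scale is not stated. Promoter motifs and protein identity, listed in the design, were not analysed here.

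The members, their roles and all lists were chosen with earlier results of these data known. All 34 members may be named. From a neighbouring list, genes past 2-fold and the highest and lowest against vector were named. PRY1, PRY2, OSH3, OSH7, KES1, PSR2, IRC25, SRB2, DOG2, YCR050C and BUD25 were named outside that rule. Alternatives were the series-wide table, median centring, quantile normalization, loess on level or coding length, single blocks, a 1.5-fold threshold, leaving out the lowest 25% of genes, and other list members or means. The brightest 25% of genes were added as a background after seeing the data.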

Additional observations from a re-analysis of the deposited data

How the results depend on the processing

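NCP1 stayed higher past 2-fold in both comparisons with vector under every alternative run. The count of members higher past 2-fold against vector was 1 in both comparisons. With Ssz1 S295F it was 2 after centring, quantile normalization or the loess on mean level, and 3 at 1.5-fold. With Zuo1 S427G it was 2 after centring, after the loess on mean level and at 1.5-fold. The second gene was YEH2 each time, and the third was ARE1. Counts of lower members and counts between the constructs stayed at 0 under every alternative. Over all genes, scaling moved the calls with Ssz1 S295F from 290 higher and 160 lower to 394 and 90 (centred), 357 and 82 (quantile), 443 and 39 (loess on mean level) and 297 and 52 (loess on coding length). With Zuo1 S427G they moved from 210 and 50 to 252 and 31, 238 and 29, 299 and 15, and 225 and 19 in the same order. Between the constructs they moved from 8 and 8 to 7 and 14, 8 and 10, 6 and 21, and 6 and 14.

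The difference of oxygen-requiring and early genes with Ssz1 S295F (-0.16) became -0.048 after the loess on coding length, -0.093 in block 2, -0.043 with NCP1, CYB5 and DAP1 added and -0.069 with means. With Zuo1 S427G (-0.05) it became -0.067 after quantile normalization, -0.062 after the loess on mean level, -0.012 after that on coding length, -0.019 in block 3, 0.024 with the 3 partners added and 0.033 with means. Between the constructs (0.10) it became 0.059 after quantile normalization, 0.052 after the loess on coding length, 0.068 in block 3 and 0.029 with the partners added. Apart from the changes that follow from adding genes, the cause was not tested. No paired analysis was possible because each group has 1 array, and for the same reason no replicate could be left out. With 1 array of pooled RNA per group, no difference here has a replicate check, and readings below the 5th percentile have uncertain ratios.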

Other observations

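The median ratio of the sterol genes lay above that of genes of like length in 4 of 5 length classes. The 3 members of up to 654 bp had a median of -0.18 with Ssz1 S295F, against -0.48 for all genes of that length. For the 4 members of 656 to 1026 bp it was -0.11 against -0.31, and for the 12 members of 1029 to 1461 bp 0.03 against -0.11. For the 9 members of 1464 to 2115 bp it was 0.17 against 0.11. Among genes of 2118 bp or more the order was the other way: the 6 members ERG7, HMG1, HMG2, UPC2, ECM22 and AUS1 had a median of -0.18 against 0.06. With Zuo1 S427G the medians in the same order of classes were -0.19 against -0.34, -0.05 against -0.25, 0.03 against -0.11, 0.18 against 0.08 and -0.18 against 0.04. The classes were not matched for mean level. With the trend with mean level subtracted, UPC2 and AUS1 turned to 0.06 and 0.13 with Ssz1 S295F. With Zuo1 S427G they turned to 0.02 and 0.004, while HMG1 and HMG2 stayed below 0 in both comparisons. These are descriptions of single arrays, and no test was made.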
